A study of Homo sapiens with 6 samples.

Results

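Long noncoding RNAs named for lying between genes (LINC followed by digits) or for starting beside a gene on the opposite strand (symbols ending in -DT, for divergent transcript) were followed in PC3 prostate cancer cells. Members were the rows of the count table whose Entrez identifier carried such a symbol in RefSeq, together with MALAT1, NEAT1, MEG3 and H19. The rule gave 170 of the 12703 genes counted. They comprised 97 LINC genes, 71 -DT genes, MALAT1 and NEAT1, while MEG3 and H19 had no row. RefSeq holds 2902 genes with such a symbol, and the counts had passed a filter on low values, so the 170 are those that reached at least 1.01 CPM (counts scaled to the library total) in 3 libraries. A member that reached it in 1 group only had to differ between the groups. This applied to 12 members, all of them called: BMPR1B-DT, LINC00471, LINC00623, LINC00689, LINC01133, LINC01940, LINC03095 and RNF139-DT reached it only in control libraries, and FAM86B2-DT, LINC01111, LINC01239 and LINC01269 only in overexpressing libraries. For these the direction was set by how the table was made, and their values are given as a description.

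All 6 libraries came from PC3, a long-established line of human prostate cancer cells grown from a bone metastasis. The 3 control libraries came from PC3 lines stably transduced with negative-control lentiviral particles, and the other 3 from PC3 lines stably transduced with particles carrying GCNT1. GCNT1 encodes an enzyme that adds the core 2 branch to O-linked glycans. Each RNA gave 1 stranded mRNA library of single reads. Both groups carry a lentiviral insertion, and whether the lines of a group came from separate transductions is not given in the sources used here, so the p-values measure the spread between these libraries.

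Total counts lay between 11392213 and 13825704 per library, at which 3 counts, the detection floor used here, equal 0.213 to 0.259 CPM. GCNT1 itself had 9, 13 and 8 counts in control libraries 1 to 3 and 13, 16 and 35 in the libraries labelled GCNT1 overexpression 1 to 3. The lowest overexpressing library thus held no more GCNT1 counts than the highest control library, and the rise of 0.98 ± 0.37 on the log2 scale (standard error) had an adjusted p of 0.0362 (edgeR quasi-likelihood, Benjamini-Hochberg) and of 0.269 without overexpressing library 3. The groups below are those of the labels. The epithelial genes KRT8, KRT18, KRT19, EPCAM, CDH1 and CD44 all had rows. CDH1 (3.59 ± 0.796 CPM in control and 1.10 ± 0.168 CPM in overexpressing libraries) and KRT19 (369 ± 17.8 and 230.4 ± 15.9 CPM) were called lower and none of the 6 higher, and the luminal prostate genes KLK2 and KLK3 had no row. None of 4 leukocyte markers had a row. Of 5 fibroblast markers only COL1A1 did, at 14.6 ± 1.03 CPM in control and 8.55 ± 0.317 CPM in overexpressing libraries, and of 4 endothelial markers PECAM1 (1.77 ± 0.292 and 4.43 ± 0.603 CPM) and KDR (154 ± 9.43 and 53.1 ± 9.14 CPM) did. The part of other cell types in the results below was not tested.

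Long noncoding RNAs are transcribed by RNA polymerase II but not translated into long proteins, and most stay at low levels because many are ended early or degraded in the nucleus. Divergent transcripts start close to a protein-coding gene and run away from it on the other strand, so the pair shares one promoter region, often a CpG island. MALAT1 is found in nuclear speckles and NEAT1 is the RNA scaffold of paraspeckles, which are nuclear bodies that hold RNA-binding proteins. Several long noncoding RNAs, among them MALAT1 and NEAT1, have been studied in prostate cancer.

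The shared promoter regions of 7 of the 9 divergent pairs whose -DT RNA and partner gene were both called differentially expressed are shown first (those of BMPR1B-DT and TNFRSF10A-DT are not shown), because the 2 RNAs of a pair start at the ends of 1 short stretch of DNA. Each sequence runs from just beyond the start of the partner gene to just before the start of the -DT RNA, 5′ to 3′ on the strand of the -DT RNA, and comes from RefSeq on GRCh38.p14. Capitals mark, on either strand, the GC box GGGCGG and the ETS core CCGGAAG.
SUCLG2-DT (chr3:67654613-67654696, plus strand): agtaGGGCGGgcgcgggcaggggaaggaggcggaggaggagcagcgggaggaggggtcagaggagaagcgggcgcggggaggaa
GAS6-DT (chr13:113864077-113864176, plus strand): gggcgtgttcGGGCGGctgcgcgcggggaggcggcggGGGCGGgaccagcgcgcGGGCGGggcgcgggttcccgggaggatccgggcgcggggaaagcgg
MAN1B1-DT (chr9:137086818-137086984, minus strand): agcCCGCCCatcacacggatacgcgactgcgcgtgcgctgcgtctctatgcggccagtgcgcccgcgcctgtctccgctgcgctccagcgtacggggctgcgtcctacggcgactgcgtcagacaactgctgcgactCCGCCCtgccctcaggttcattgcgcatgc
C2orf74-DT (chr2:61144976-61145115, minus strand): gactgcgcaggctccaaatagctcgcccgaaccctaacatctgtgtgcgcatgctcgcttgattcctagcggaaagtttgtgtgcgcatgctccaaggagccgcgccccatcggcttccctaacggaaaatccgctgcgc
MAP4K3-DT (chr2:39437286-39437415, plus strand): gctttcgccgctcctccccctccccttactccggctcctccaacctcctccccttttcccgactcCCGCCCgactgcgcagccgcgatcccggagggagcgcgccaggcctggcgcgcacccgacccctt
MOCS2-DT (chr5:53109758-53109841, plus strand): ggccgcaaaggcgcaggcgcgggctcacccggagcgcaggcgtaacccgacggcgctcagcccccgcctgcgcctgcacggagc
NIPBL-DT (chr5:36876695-36876768, minus strand): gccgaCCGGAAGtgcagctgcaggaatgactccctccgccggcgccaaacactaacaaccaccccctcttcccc

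These stretches were 74 to 167 bases long, with 5 to 23 CG dinucleotides each. Those of SUCLG2-DT, GAS6-DT and MAN1B1-DT, which belong to 3 of the 4 pairs that rose, each held a GC box, as did that of MAP4K3-DT, whose pair fell, and the stretch of NIPBL-DT held an ETS core, whereas those of C2orf74-DT and MOCS2-DT held none of the motifs searched. For 2 further pairs only 1 of the 2 RNAs was called, the -DT RNA for USP27X-DT and the partner for ZFAND2A-DT, and their stretches are given in the same way, with the CCAAT box (letters CCAAT), on either strand, also in capitals.
USP27X-DT (chrX:49879357-49879483, minus strand): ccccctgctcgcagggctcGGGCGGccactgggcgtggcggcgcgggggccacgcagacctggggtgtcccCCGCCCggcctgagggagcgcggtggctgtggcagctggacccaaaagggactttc
ZFAND2A-DT (chr7:1160197-1160373, plus strand): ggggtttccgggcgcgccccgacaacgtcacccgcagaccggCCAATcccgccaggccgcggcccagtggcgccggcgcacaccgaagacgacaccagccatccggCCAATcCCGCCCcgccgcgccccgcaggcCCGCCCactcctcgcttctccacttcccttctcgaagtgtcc

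Divergent and intergenic members differed in base composition at their starts. Over the 300 bases around the start (250 before and 50 after), 59 -DT members with a RefSeq promoter entry had a median of 31 CG dinucleotides and 69% G and C, against 9.5 and 54.8% in 70 LINC members and 14 and 58.3% in all 27305 promoters. A GC box lay in 79.7% of the -DT promoters, in 44.3% of the LINC promoters and in 44.6% of all promoters, counting both strands. The ETS core lay in 25.4%, 17.1% and 10.7%, and the CCAAT box in 39.0%, 47.1% and 35.7% of the same groups. The TATA box TATAAA lay in 5.08% of -DT, 14.3% of LINC and 12.0% of all promoters, and the NRF1 motif in 6.78%, 0% and 1.36%. The CRE TGACGTCA lay in 1.69%, 4.29% and 1.98%, the E2F site TTTCCCGC in 0%, 2.86% and 1.66%, and the YY1 site AAGATGGC in 5.08%, 2.86% and 3.03% of the same groups. These shares rest on few promoters among the members and were not tested. The promoters of 2 intergenic members with large falls, LINC00689 and LINC00261, are shown because they lack the G and C richness of the stretches above. Capitals mark a CCAAT box in the first and a TATA box, on the other strand, in the second.
LINC00689 (chr7:159008104-159008403, plus strand): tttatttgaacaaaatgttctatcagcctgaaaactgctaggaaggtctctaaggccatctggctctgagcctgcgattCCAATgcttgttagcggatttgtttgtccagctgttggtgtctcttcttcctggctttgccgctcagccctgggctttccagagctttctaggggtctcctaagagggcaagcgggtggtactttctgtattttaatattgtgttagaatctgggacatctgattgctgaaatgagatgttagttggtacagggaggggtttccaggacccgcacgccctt
LINC00261 (chr20:22578593-22578892, minus strand): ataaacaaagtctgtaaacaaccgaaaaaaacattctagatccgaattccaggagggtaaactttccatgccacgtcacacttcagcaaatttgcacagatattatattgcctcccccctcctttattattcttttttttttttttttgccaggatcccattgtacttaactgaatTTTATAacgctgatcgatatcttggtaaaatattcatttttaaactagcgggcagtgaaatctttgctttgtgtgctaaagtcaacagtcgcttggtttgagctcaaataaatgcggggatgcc

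Of the 170 members, 52 (30.6%) were called differentially expressed, 24 higher and 28 lower in the overexpressing libraries. A call needed an adjusted p under 0.05 with the quasi-likelihood test of edgeR, Benjamini-Hochberg adjusted over all 12703 genes, and an absolute log2 fold change of at least 0.58. By the same thresholds 19.3% of all genes were called, 8.28% higher and 11.1% lower. Members were low, with a median of 3.79 CPM against 32.8 CPM for all genes, and 135 of them lay under 10 CPM. Among the other genes in the middle range of member levels (the range between the quartiles, 1.79 to 7.47 CPM) 38.6% were called (17.6% higher, 21.0% lower), against 21 of the 84 members there. The members' share thus stood above that of all genes and below that of genes of like level, with neither difference tested. Without the 12 members that entered through 1 group, 40 of 158 were called (25.3%), 20 higher and 20 lower. The median log2 fold change of the members was 0.02, and all genes had a median of 0.00095.

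Adjusted p alone was passed by 77 members, 41 higher and 36 lower, while 57.6% of all genes passed it. The 3 control and 3 overexpressing libraries did not overlap for 93 members (54.7%), including all 52 called, and for 62.5% of all genes. A change of at least 2-fold was seen in 26 called members, 11 higher and 15 lower, and in 8.71% of all genes (3.34% higher, 5.37% lower). The 26 include all members that entered through 1 group except FAM86B2-DT and RNF139-DT, so part of this count follows from how the table was made. The test glmTreat asks whether a fold change exceeds 0.58, and its share over all genes is not given here. With it 25 members were called, 10 higher and 15 lower, as a description only. The named members that lost their call with it were MALAT1, LINC01269, BAIAP2-DT, C2orf74-DT, FAM86B2-DT, IRX2-DT, ISL1-DT, MAN1B1-DT, MOCS2-DT, OSER1-DT, RNF139-DT, TNFRSF10A-DT and USP27X-DT, as did the partners AFTPH, BMPR1B, C2orf74, GAS6, RNASEH1 and TNFRSF10A and the list genes FIGN, CLK4, RPP38 and INTS7. The LINC genes split evenly, with 17 called higher and 15 lower and a median log2 fold change of 0.13. The -DT genes were called higher in 6 and lower in 13 cases with a median log2 fold change of -0.10, which became 8 higher and 11 lower when counts were scaled by library size alone and 3 higher and 12 lower with DESeq2. For comparison, 239 antisense RNAs named for the gene they overlap had 35 called higher and 24 lower (24.7% in all), with a median of 0.09.

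**Figure D1:**
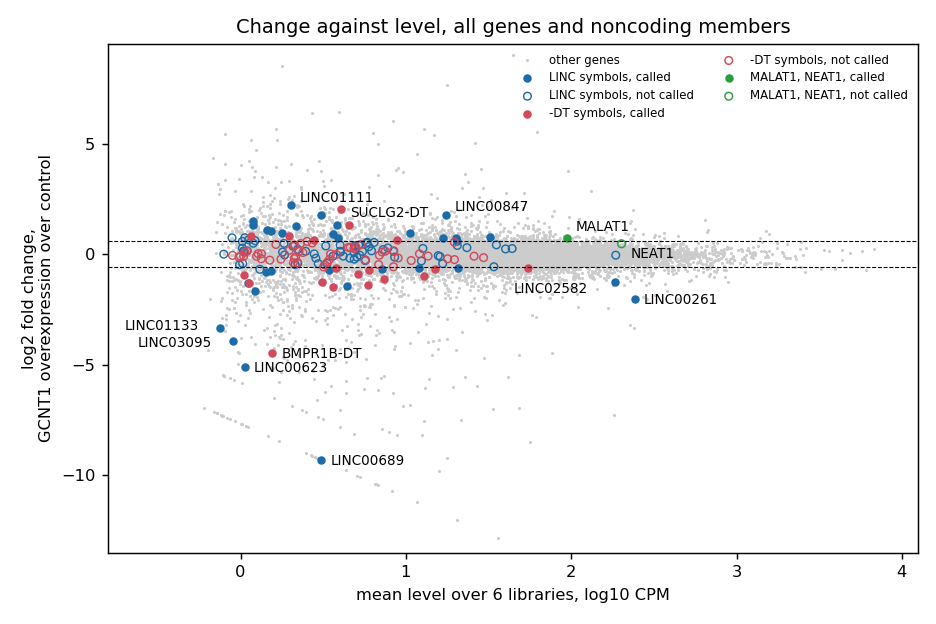
Log2 fold change (overexpression over control) of every gene against its mean level over 6 libraries in log10 CPM, with other genes in grey, LINC members in blue, -DT members in red and MALAT1 and NEAT1 in green; filled circles were called and dashed lines mark a log2 fold change of 0.58 in either direction. Of 170 members 135 lie under 10 CPM (1 on the log10 axis), and LINC00261 and LINC02582 stand out as abundant members that fell. The fitted values of the 5 members at the floor, the lowest of the members, depend on the fit and are not bounds.

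Nuclear RNAs came first. MALAT1, a speckle RNA that controls the use of splicing factors, had 953, 877 and 781 counts in control and 1194, 1630 and 1857 counts in overexpressing libraries. Every overexpressing library was above every control library, the lowest of them being library 1. It rose from 70.7 ± 4.84 to 118 ± 14.2 CPM (SD, n = 3), and its log2 fold change was 0.74 ± 0.08 (standard error) with an adjusted p of 6.43e-06 (edgeR quasi-likelihood, Benjamini-Hochberg). With glmTreat the adjusted p was 0.0889. An annotated antisense RNA, TALAM1, overlaps MALAT1, and whether the counting used strand is not given in the sources used here.

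NEAT1 had 2281, 2072 and 1893 counts in control and 2422, 3080 and 3786 counts in overexpressing libraries. The groups did not overlap, but in raw counts overexpressing library 1 lay close to control library 1. Its log2 fold change of 0.47 ± 0.08 passed the adjusted p (0.000248, edgeR quasi-likelihood, Benjamini-Hochberg) and not the fold threshold, so it was not called. Per length the pair stood at similar levels, MALAT1 at 6.78 ± 0.464 and 11.3 ± 1.36 RPKM (counts scaled to the library total and to exon length) and NEAT1 at 7.43 ± 0.476 and 10.3 ± 1.35 RPKM in control and overexpressing libraries, on the merged exons of GENCODE. The library kit selects polyadenylated RNA, whereas the mature 3′ end of MALAT1 and of the long NEAT1 isoform is not polyadenylated, and the part of this in the levels was not tested.

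Few of the genes whose products work with these RNAs were called. Of 33 measured paraspeckle proteins 1 was called, FIGN, with 87, 107 and 81 counts in control and 108, 190 and 198 in overexpressing libraries (log2 fold change 0.75 ± 0.16), with a list median of -0.00118 on the log2 scale. The core paraspeckle proteins gave log2 fold changes of 0.06 for NONO, -0.21 for SFPQ and 0.36 for PSPC1. Of 23 nuclear speckle genes 1 was called, the splicing kinase CLK4, at 134, 125 and 112 counts in control and 80, 93 and 70 in overexpressing libraries (log2 fold change -0.70 ± 0.14, and -0.56 and no call without overexpressing library 3). The list had a median of -0.06.

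Genes that mature MALAT1 and NEAT1, namely RNase P subunits, ELAC2 and the m6A writers, had a median of 0.26 over 14 measured members. Of these 10 passed the adjusted p, 8 higher and 2 lower, against 57.6% of all genes, and only the RNase P subunit RPP38 was called, with 91, 95 and 73 counts in control and 175, 168 and 139 in overexpressing libraries (0.81 ± 0.15). ELAC2, the nuclease that trims tRNA 3′ ends, gave a log2 fold change of 0.19 and METTL16, which binds the MALAT1 triple helix, 0.45. The nuclear exosome and its adaptors, which degrade short-lived noncoding RNA, had 2 of 29 called. EXOSC9, an exosome core subunit, rose by 0.86 ± 0.08 from 298, 296 and 271 counts in control to 536, 577 and 561 in overexpressing libraries. TENT4A, a noncanonical poly(A) polymerase, had 1283, 1390 and 1232 counts in control and 536, 655 and 652 in overexpressing libraries and fell by 1.18 on the log2 scale with a standard error of 0.06. The list's median was 0.07. Of 29 genes of Integrator and early termination, which end unproductive transcription, INTS7 was the 1 called, from 578, 559 and 514 counts to 830, 994 and 998 (0.68 ± 0.06), with a list median of 0.06 and with 3 calls, all higher, when counts were scaled by library size alone. The share called in each of the 5 lists was below the 19.3% of all genes, a comparison not matched for level. Adjusted p alone was passed by 13 of 33 paraspeckle, 8 of 23 speckle, 13 of 29 exosome and 13 of 29 Integrator genes.

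**Figure D2:**
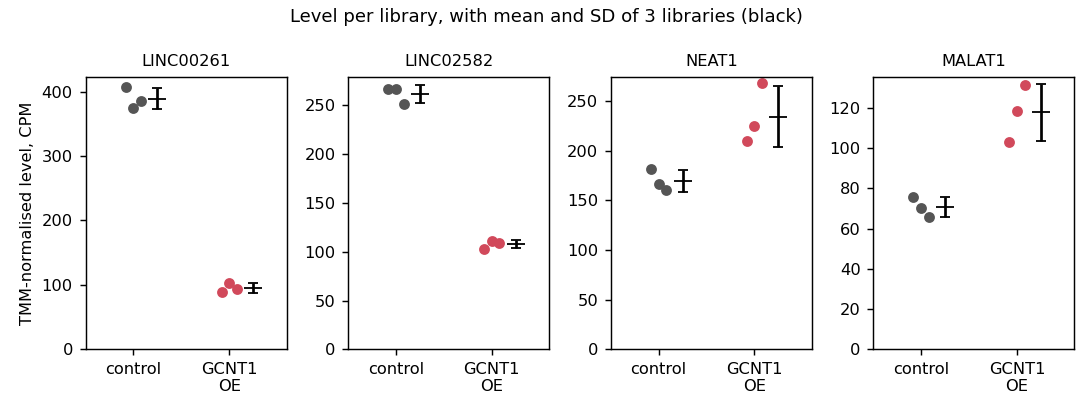
Level in CPM (scaled with TMM factors, linear axes from 0) of LINC00261, LINC02582, NEAT1 and MALAT1 in each of the 3 control (grey) and 3 GCNT1 overexpressing (red) libraries, with the group mean and 1 SD in black. LINC00261 falls from 389 to 95.1 CPM and LINC02582 from 261 to 108 CPM, while NEAT1 and MALAT1 are higher in every overexpressing library than in any control library.

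Among intergenic RNAs the largest changes in CPM were falls of LINC00261 and LINC02582. LINC00261 lies beside FOXA2, a pioneer factor of endoderm, and is known from endoderm development. It had 5114, 4657 and 4554 counts in control and 1028, 1419 and 1316 in overexpressing libraries. No library of one group came near the other. It fell from 389 ± 16.4 to 95.1 ± 7.41 CPM (SD, n = 3), and its log2 fold change was -2.03 ± 0.06 (adjusted p = 1.88e-11, edgeR quasi-likelihood, Benjamini-Hochberg). FOXA2, which lies 2.36 kb away, also fell, with a log2 fold change of -1.05, while the median of the 50 nearest genes counted was -0.18. LINC02582 had 3358, 3313 and 2968 counts in control and 1193, 1518 and 1541 in overexpressing libraries. It fell from 261 ± 8.90 to 108 ± 3.97 CPM, and its log2 fold change was -1.28 ± 0.05 with an adjusted p of 2.88e-10.

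These 2 genes carried the total. The summed level of all 170 members was 2172 ± 49.0 CPM in control and 1852 ± 70.4 CPM in overexpressing libraries, and that of LINC00261 and LINC02582 alone was 650 ± 20.3 and 203 ± 11.0 CPM. The other 168 members stood at 1523 ± 28.7 CPM in control and 1649 ± 62.8 CPM in overexpressing libraries, with every overexpressing library above every control library. These 168 include MALAT1 and NEAT1, both higher in the overexpressing libraries, so the sum does not show a rise of members in general. The -DT genes among them summed to 471 ± 1.54 CPM in control and 411 ± 8.10 CPM in overexpressing libraries. Per length LINC02582 was at 105 ± 3.57 and 43.2 ± 1.59 RPKM and LINC00261 at 63.5 ± 2.68 and 15.5 ± 1.21 RPKM in control and overexpressing libraries, both above MALAT1 and NEAT1 in each group.

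The other abundant members changed less. LINC00674 had 2565, 2254 and 2149 counts in control and 2039, 2576 and 2606 in overexpressing libraries. The groups overlapped, and the log2 fold change was -0.05 ± 0.06 with an adjusted p of 0.493 (edgeR quasi-likelihood, Benjamini-Hochberg), turning to 0.01 with library size alone and to 0.02 without control library 1. BAIAP2-DT, the divergent partner of the gene for the actin regulator IRSp53, had 805, 825 and 792 counts in control and 484, 586 and 631 in overexpressing libraries. It fell by 0.61 on the log2 scale with a standard error of 0.06, close to the threshold, and was not called with library size alone. LINC01116 gave a log2 fold change of -0.57 ± 0.07, just short of a call, which it passed without control library 1 (-0.60), without overexpressing library 1 (-0.59) and without overexpressing library 3 (-0.61). LINC02693, LINC00205 and LINC00857 had log2 fold changes of 0.42, 0.25 and 0.24, past the adjusted p but not the fold.

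**Figure D3:**
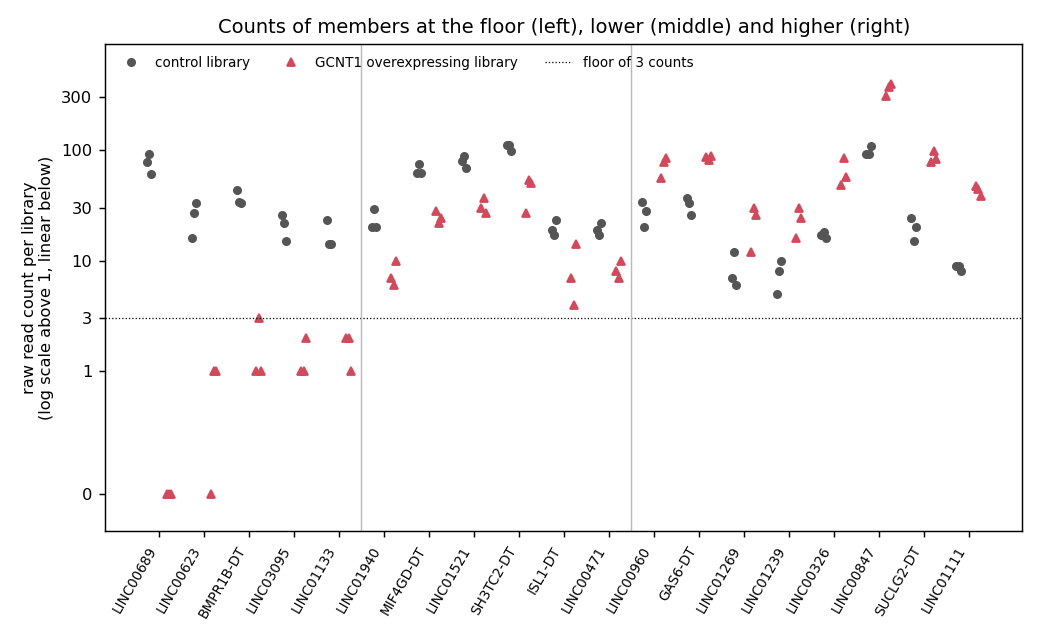
Raw read counts of single libraries, on an axis that is logarithmic above 1 and linear below, for the 5 members at the floor (left), 6 with large falls (middle) and 8 with large rises (right); grey circles are control and red triangles GCNT1 overexpressing libraries, and the dotted line is the floor of 3 counts. The groups are apart for every gene shown except LINC01269, where both reach 12 counts, and LINC00689 is at 0 in each overexpressing library.

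A total of 5 intergenic or divergent RNAs were at 3 counts or fewer in every overexpressing library, and 0 members were so in every control library. The same held for 0.74% and 0.157% of all genes. These members reached the count table only through the control libraries, so their difference follows from how the table was made, and folds are bounds against a floor of 3 counts per library. LINC00689 (chr7:159008354-159026238, plus strand) had 77, 91 and 60 counts in control and no counts in overexpressing libraries, which is at least 26.8-fold lower. It was the only one of the 5 without a single read in the overexpressing group. BMPR1B-DT (chr4:94743668-94757533, minus strand) had 43, 34 and 33 counts in control and 1, 3 and 1 in overexpressing libraries, at least 13.0-fold lower. LINC00623 (chr1:120912238-120955811) had 16, 27 and 33 against 0, 1 and 1 counts, at least 9.03-fold lower.

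LINC03095 (chr7:26551839-26558880) had 26, 22 and 15 counts in control and 1, 1 and 2 in overexpressing libraries, at least 7.39-fold lower. LINC01133 (chr1:159961224-159979086) had 23, 14 and 14 counts in control and 2, 2 and 1 in overexpressing libraries, at least 5.99-fold lower. The levels of both were low in control libraries too, at 1.70 ± 0.403 and 1.38 ± 0.390 CPM. LINC01133 lies within the RefSeq span of SLAMF9, a gene of the SLAM family of immune receptors that itself fell, with a log2 fold change of -3.74, so reads of the 2 may not be told apart. LINC00623 overlaps the pseudogene PDE4DIPP4 and lies in a duplicated part of chromosome 1, so its reads may be shared with copies. The same 5 genes were at 5 counts or fewer. The next members above the floor were LINC00471 and LINC01940, whose highest count in an overexpressing library was 10, and RNF139-DT with 11. On the control side the lowest was LINC01111, with a highest count of 9.

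Other falls of intergenic RNAs were smaller in CPM than that of LINC02582, though those named here exceeded its log2 fold change of -1.28. LINC01940 had 20, 29 and 20 counts in control and 7, 6 and 10 in overexpressing libraries (log2 fold change -1.67 ± 0.30). Its neighbour at 8.77 kb, TWIST2, a transcription factor of epithelial-mesenchymal transition, also fell by 5.62 on the log2 scale, and the median of the 50 nearest genes was -0.60. LINC01521 had 79, 88 and 69 counts in control and 30, 37 and 27 in overexpressing libraries (log2 fold change -1.42 ± 0.17). LINC00471 had 19, 17 and 22 counts in control and 8, 7 and 10 in overexpressing libraries (-1.30 ± 0.29). LINC01940 and LINC00471 are among the members that reached the table through the control libraries only.

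Rises of intergenic RNAs were led by LINC01111, LINC00326 and LINC00847. LINC01111 had 9, 9 and 8 counts in control and 47, 44 and 38 in overexpressing libraries (log2 fold change 2.20 ± 0.26), and it is among the members that reached the table through the overexpressing libraries only. Its nearest counted protein-coding genes, HNF4G and ZFHX4, moved the other way, with log2 fold changes of -0.75 and -0.29. LINC00326 had 17, 18 and 16 counts in control and 48, 84 and 57 in overexpressing libraries (1.78 ± 0.23). The median of the 50 genes nearest to it was -0.41, so it rose in a stretch of genes that were mostly lower.

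LINC00847 had 91, 91 and 107 counts in control and 305, 368 and 394 in overexpressing libraries, a log2 fold change of 1.78 ± 0.10 (adjusted p = 7.25e-09, edgeR quasi-likelihood, Benjamini-Hochberg). It lies at chr5:180830957-180835726 and overlaps HEIH, a long noncoding RNA first described in liver cancer, on the other strand. HEIH had 79, 68 and 73 counts in control and 271, 289 and 299 in overexpressing libraries (1.87 ± 0.10). The 2 rose by like amounts, and without knowledge of strand in the counting their reads cannot be told apart. Lower in level were LINC01239 (5, 8 and 10 counts in control, 16, 30 and 24 in overexpressing libraries), LINC01269 (7, 12 and 6 against 12, 30 and 26) and LINC00960 (34, 20 and 28 against 56, 77 and 84). Their log2 fold changes were 1.49 ± 0.32, 1.33 ± 0.35 and 1.30 ± 0.19. LINC01239 and LINC01269 also reached the table through the overexpressing libraries only, and LINC01269 rested on library size for its separation, since control library 2 and overexpressing library 1 both held 12 counts.

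Divergent RNAs were compared with the gene on the other side of their promoter. Of 71 -DT members 69 had a partner with a row, and the partner was above its -DT RNA in CPM in 66 pairs, at a median of 10.9 times. Where both starts were known (56 pairs), 51 lay head to head within 600 bases, with a median gap of 148 bases. In 9 pairs both RNAs were called, in 9 only the -DT RNA, in 6 only the partner and in 45 neither, while 21.7% of the partners were called against 19.3% of all genes. All 9 pairs with both called moved in one direction, 4 higher and 5 lower. Over 69 pairs the log2 fold changes had the same sign in 52, with Pearson's r of 0.53 and Spearman's rho of 0.67 across pairs, which share libraries and chromosomal surroundings and are a description only.

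**Figure D4:**
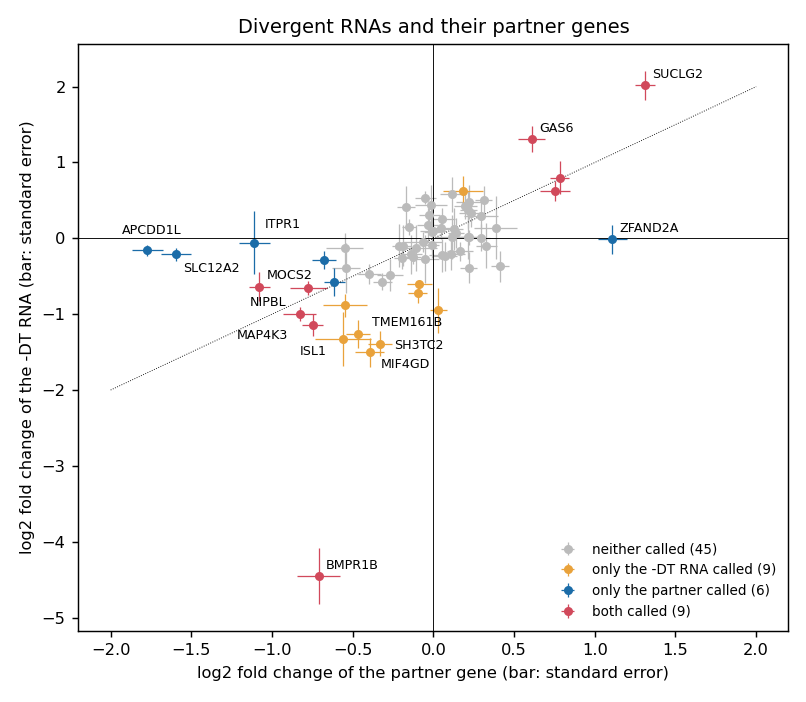
Log2 fold change of each -DT RNA against that of its partner gene for 69 pairs, with bars of 1 standard error, the dotted line of equal change, and colours for which of the 2 was called. The 9 pairs with both called lie in the upper right (4) and lower left (5), and the partners APCDD1L and SLC12A2 fell with little change of their -DT RNA.

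Among the pairs that rose, SUCLG2-DT stood first. It had 24, 15 and 20 counts in control and 77, 98 and 82 in overexpressing libraries, a log2 fold change of 2.02 ± 0.19 (adjusted p = 1.31e-06, edgeR quasi-likelihood, Benjamini-Hochberg). SUCLG2, a subunit of the GTP-forming succinyl-CoA ligase of the citric acid cycle, had 385, 367 and 365 counts in control and 825, 1058 and 1083 in overexpressing libraries (1.31 ± 0.06). The -DT RNA rose more, so that its level was 5.27 ± 1.09% of that of SUCLG2 in control and 8.72 ± 0.997% in overexpressing libraries, with no overlap between the groups. GAS6-DT had 37, 33 and 26 counts in control and 86, 80 and 88 in overexpressing libraries (1.31 ± 0.17). GAS6, the ligand of the TAM receptor kinases, rose by 0.61 ± 0.08, which fell short of the threshold without overexpressing library 1 (0.53). The -DT RNA was 8.89 ± 1.56% of GAS6 in control and 14.5 ± 0.315% in overexpressing libraries.

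MAN1B1-DT and TNFRSF10A-DT kept to their partners. MAN1B1-DT had 15, 18 and 20 counts in control and 26, 38 and 35 in overexpressing libraries (0.80 ± 0.22; adjusted p = 0.00713, edgeR quasi-likelihood, Benjamini-Hochberg; 0.0508 with DESeq2), and MAN1B1, a mannosidase that trims N-linked glycans, rose by 0.78 ± 0.06. Its level was 1.85 ± 0.267% and 1.88 ± 0.298% of the partner's in the 2 groups. TNFRSF10A-DT had 92, 92 and 73 counts in control and 132, 161 and 130 in overexpressing libraries (0.62 ± 0.13), and the TRAIL death receptor gene TNFRSF10A rose by 0.76 ± 0.09. The call of TNFRSF10A-DT was lost without control library 3 (0.55) and without overexpressing library 2 (0.56). In both pairs the ratio of the 2 RNAs overlapped between groups.

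Of the pairs that fell, the lowest -DT RNA was BMPR1B-DT, the floor member described above. BMPR1B, a type I receptor for bone morphogenetic proteins, had 238, 189 and 202 counts in control and 97, 172 and 143 in overexpressing libraries (-0.71 ± 0.13). NIPBL-DT had 222, 207 and 202 counts in control and 97, 114 and 128 in overexpressing libraries (-0.99 ± 0.09; adjusted p = 1.19e-06, edgeR quasi-likelihood, Benjamini-Hochberg). NIPBL, which loads cohesin onto chromosomes, changed by -0.83 ± 0.10, and the ratio overlapped between the groups. MAP4K3-DT had 117, 145 and 111 counts in control and 50, 73 and 58 in overexpressing libraries (-1.14 ± 0.14). MAP4K3, a kinase of nutrient signalling, changed by -0.75 ± 0.07.

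C2orf74-DT had 228, 226 and 227 counts in control and 124, 156 and 184 in overexpressing libraries (-0.65 ± 0.10; adjusted p = 6.37e-05, edgeR quasi-likelihood, Benjamini-Hochberg). C2orf74 changed by -0.77 ± 0.11, and the -DT RNA was above its partner in CPM, at 139 ± 18.3% and 150 ± 21.6% of it. MOCS2-DT had 45, 65 and 59 counts in control and 38, 43 and 35 in overexpressing libraries (-0.64 ± 0.19). MOCS2, which makes the molybdenum cofactor, changed by -1.08 ± 0.07. The call of MOCS2-DT was lost with library size alone (-0.58) and without control library 2 (-0.53), control library 3 (-0.58) or overexpressing library 3 (-0.52). MAP4K3-DT and MOCS2-DT also overlap their partner gene on the other strand, so without knowledge of strand in the counting some reads of each pair may not be told apart.

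Some -DT RNAs were called where the partner was not. MIF4GD-DT had 61, 75 and 61 counts in control and 28, 22 and 24 in overexpressing libraries (-1.50 ± 0.19; adjusted p = 2.16e-05, edgeR quasi-likelihood, Benjamini-Hochberg). MIF4GD, a factor in histone mRNA translation, changed by -0.40 ± 0.09. SH3TC2-DT had 110, 110 and 98 counts in control and 27, 53 and 50 in overexpressing libraries (-1.39 ± 0.16), and SH3TC2, a protein of endosomal recycling, changed by -0.33 ± 0.08. TMEM161B-DT had 54, 51 and 56 counts in control and 18, 24 and 30 in overexpressing libraries (-1.26 ± 0.18), against -0.47 ± 0.08 for TMEM161B. In these 3 pairs the -DT RNA lost share against its partner, from 10.3 ± 2.18% to 4.70 ± 0.605%, from 8.28 ± 0.292% to 3.88 ± 0.576% and from 14.8 ± 1.50% to 8.45 ± 1.20%, without overlap between the groups. TMEM161B-DT and TMEM161B overlap on opposite strands, which limits their ratio in the same way.

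ISL1-DT and IRX2-DT lie beside homeobox genes. ISL1-DT had 19, 17 and 23 counts in control and 7, 4 and 14 in overexpressing libraries (-1.32 ± 0.36; adjusted p = 0.00645, edgeR quasi-likelihood, Benjamini-Hochberg), and IRX2-DT had 93, 78 and 73 against 48, 49 and 44 counts (-0.88 ± 0.15). Their partners ISL1 and IRX2 stood just short of the fold threshold, at -0.56 ± 0.17 and -0.55 ± 0.14, and the ratios overlapped. ISL1 passed the threshold without control library 3 and without overexpressing library 1, and IRX2 without control library 3 and without overexpressing library 3. A call of the -DT RNA and not of the partner is therefore no sign of a difference within these 2 pairs.

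OSER1-DT had 103, 84 and 88 counts in control and 54, 59 and 66 in overexpressing libraries (-0.71 ± 0.13; adjusted p = 0.000491, edgeR quasi-likelihood, Benjamini-Hochberg), and OSER1, an oxidative stress response gene, gave -0.10 ± 0.06. BAIAP2 gave -0.09 ± 0.08 beside the fall of BAIAP2-DT. The 2 weakest calls of this kind were those of RNF139-DT (19, 15 and 17 against 11, 7 and 10 counts, -0.95 ± 0.30) and USP27X-DT (29, 28 and 24 against 35, 43 and 56 counts, 0.63 ± 0.19). RNF139-DT lost its call with DESeq2 (adjusted p = 0.0926), without control library 1 and without overexpressing library 2, and USP27X-DT with DESeq2 (adjusted p = 0.0711), without control library 3 and without overexpressing library 3. FAM86B2-DT, whose partner had no row, was called at 12, 9 and 10 against 15, 27 and 16 counts (0.80 ± 0.30), and lost its call with DESeq2 and without any 1 of control libraries 1, 2 and 3 or overexpressing library 2.

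The reverse pattern, a called partner beside a -DT RNA that was not called, was widest at APCDD1L and SLC12A2. APCDD1L, a homologue of a Wnt inhibitor, had 314, 336 and 333 counts in control and 85, 104 and 119 in overexpressing libraries and changed by -1.77 ± 0.09 (adjusted p = 5.4e-09, edgeR quasi-likelihood, Benjamini-Hochberg). APCDD1L-DT had 397, 408 and 344 counts in control and 309, 401 and 392 in overexpressing libraries, a log2 fold change of -0.16 ± 0.07 with overlapping counts. The -DT RNA went from 117 ± 12.2% of its partner in control to 360 ± 28.3% in overexpressing libraries, and the 2 genes overlap on opposite strands, as do ZFAND2A-DT and ZFAND2A. SLC12A2, the sodium-potassium-chloride cotransporter NKCC1, had 3074, 2518 and 2316 counts in control and 719, 1084 and 1006 in overexpressing libraries (-1.59 ± 0.09). SLC12A2-DT had 251, 245 and 212 against 190, 232 and 232 counts (-0.21 ± 0.08), and its ratio to SLC12A2 went from 9.02 ± 0.791% to 23.6 ± 2.56%.

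ITPR1, an IP3 receptor calcium channel, fell from 1053, 1073 and 846 counts in control to 356, 549 and 574 in overexpressing libraries (-1.11 ± 0.10; adjusted p = 7.47e-07, edgeR quasi-likelihood, Benjamini-Hochberg). ITPR1-DT had only 8, 10 and 16 against 4, 17 and 14 counts, and its log2 fold change of -0.06 ± 0.42 turned positive without control library 3 (0.30) and without overexpressing library 1 (0.27), so a difference was not detectable at this depth. ZFAND2A, a gene induced by arsenite and heat, rose by 1.11 ± 0.09, while ZFAND2A-DT had 40, 53 and 48 against 34, 54 and 62 counts and a log2 fold change of -0.01 ± 0.19, whose sign changed with scaling by library size alone (0.05). AFTPH and RNASEH1 fell by 0.61 and 0.68 on the log2 scale. AFTPH-DT changed by -0.58 ± 0.19, just short of a call, which it gained without control library 3 (-0.68) and without overexpressing library 3 (-0.71), and RNASEH1-DT changed by -0.29 ± 0.12. AFTPH itself was called neither with library size alone (-0.56) nor without control library 1 (-0.55).

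Named pairs in which the ratio of the -DT RNA to its partner overlapped between groups were those of AFTPH, C2orf74, IRX2, ISL1, ITPR1, MAN1B1, MOCS2, NIPBL and TNFRSF10A. Over all 69 pairs the ratio did not overlap in 24 (34.8%). These include pairs with neither RNA called, such as those of CTBP1, SP2 and SRP14. Ratios of RNAs of different length are comparable within a pair only.

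Members were also set beside the genes around them, using for each the median log2 fold change of the 50 nearest counted genes. Of 32 members in surroundings below -0.2, 16 were called (3 higher, 13 lower), against 28.6% of all genes there. Of 29 members in surroundings above 0.2, 9 were called (7 higher, 2 lower), against 22.4% of all genes there. Between these bounds 27 of 109 were called (14 higher, 13 lower), against 16.4% of all genes there. These comparisons were neither matched for level nor tested, and members are low. The comparison at like level given above was not split by surroundings, and in it the members' share was the lower. Called members whose direction was set by how the table was made are counted here too. They are LINC00471, LINC00623 and LINC01940 below -0.2, LINC00689 above 0.2, and the rest between these bounds. The member's change and the local median had a Pearson's r of 0.20 and a Spearman's rho of 0.42 across 170 members, which share libraries and neighbours and are a description only. Of the 52 called members 41 kept a log2 fold change of at least 0.58 after the local median was taken off.

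The members with the lowest surroundings were IRX2-DT (local median -1.08) and NIPBL-DT (-0.66), both on chromosome 5, followed by CAPN10-DT (-0.606), which was not called, and LINC01940 (-0.603), both on chromosome 2. ISL1-DT, also on chromosome 5, and LINC00471, on chromosome 2 as well, stood in surroundings of -0.58 each. MAN1B1-DT, which rose, had surroundings of 0.60. LINC00689 stood against its surroundings (local median 0.24), as did LINC00847 (-0.29), while those of BMPR1B-DT (0.04), LINC01133 (0.03) and LINC03095 (-0.01) were near 0.

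**Figure D5:**
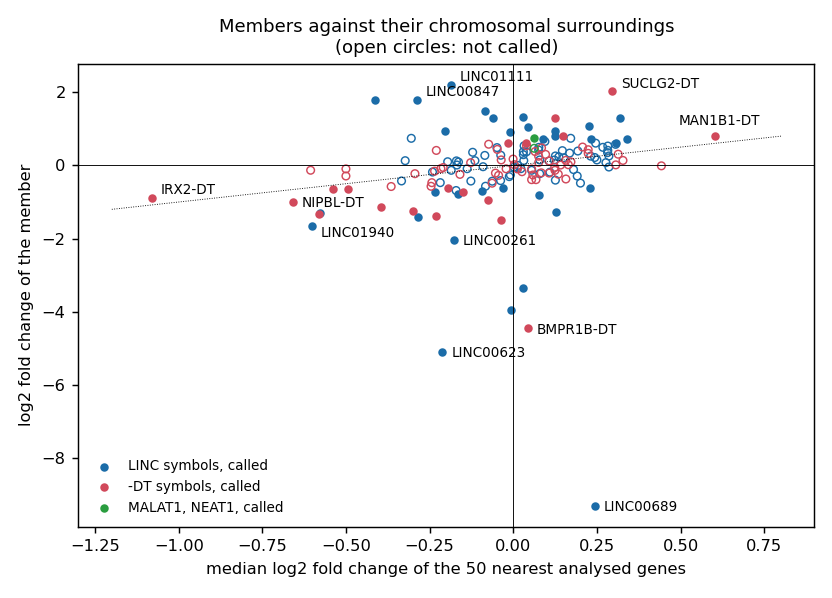
Log2 fold change of each of the 170 members against the median log2 fold change of its 50 nearest counted genes, with the dotted line of equality and filled circles for called members. IRX2-DT, NIPBL-DT and LINC01940 lie in low surroundings and MAN1B1-DT in high ones, and LINC00689, at 0 counts in the overexpressing libraries, lies in surroundings of 0.24.

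Overlap with other genes limits many of these values. Of the 170 members 161 were matched to GENCODE, and 95 of them overlapped an annotated gene of another name, 82 on the opposite strand and 38 on the same strand. Among the 52 called members 25 did so. LINC00261, LINC02582, LINC00471, LINC01521, LINC01940, SUCLG2-DT and GAS6-DT were among the called members with no such overlap.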

How the data were processed

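Sequenced were 6 RNAs, 3 of PC3 lines with negative-control lentivirus and 3 of lines overexpressing GCNT1. Per the study's methods the authors prepared stranded mRNA libraries, ran Cutadapt on the single reads, aligned to hg38 by HISAT2 and counted genes with featureCounts, which the submitters' processing notes also list with FastQC and limma. Deposited were the unnormalized counts of each gene, 1 column per library and no pooling. The annotation, strand setting and filter on low counts are not given in the sources used here, and the third highest library of every gene reached 1.01 CPM or more. Total counts were 11392213 to 13825704 per library, and the floor of 3 counts covers counting error only, while SDs and standard errors include the spread between libraries.

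The main test used edgeR 4.0.16 under R 4.3.3 (filterByExpr, which kept all 12703 genes, TMM factors, quasi-likelihood fit of 2 groups without a block, Benjamini-Hochberg adjustment over all genes). Calls needed an adjusted p under 0.05 and an absolute log2 fold change of 0.58. Standard errors are the log2 fold change divided by the root of F. CPM used TMM-scaled totals and ratios of a -DT RNA to its partner were taken per library. Libraries of a group differed by more than sampling noise (chi-square per degree of freedom 1.65 to 5.61), so each counted as 1 sample. Symbols, positions and promoters came from RefSeq GRCh38.p14 by Entrez identifier (12661 genes matched, 42 not). Exon lengths and overlaps came from GENCODE 44, with limma 3.58.1, DESeq2 1.42.0 and Python 3.11.15 as further tools. On simulated counts of 12664 genes, 200 of them changed, edgeR and limma-voom recovered 98% and DESeq2 96% with 0% false calls. The changed genes were drawn from those above 2 CPM and given log2 fold changes of 1 or 2 in either direction. Recovery of smaller changes and of lower genes was not tested.

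Members, gene lists and the rule for named genes were chosen with earlier results of these data known. Named were the members at the floor, the 8 largest rises and falls among other called members whose groups did not overlap, the 10 with the highest mean CPM, every -DT member that was called or whose partner was, and the called gene with the smallest p of each list, to which EXOSC9, the other called exosome gene, and the core proteins NONO, SFPQ, PSPC1, ELAC2 and METTL16 were added, with CAPN10-DT, after their values were seen. Alternatives were RLE factors, library size alone, limma-voom, DESeq2, 3 other filters, the replicate block, glmTreat, leaving out each library and, added after the data were seen, older symbols and folds relative to neighbouring genes. Protein, glycan and tumour measurements of the study were not used here.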

Additional observations from a re-analysis of the deposited data

How the results depend on the processing

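The members called numbered 46 to 54 with RLE factors, library size alone, limma-voom, DESeq2, no filter, a filter of 0.5 CPM in 3 libraries and the replicate block, and 37 of the 139 members left with at least 10 counts in every library. That filter took the LINC genes called to 21, since it drops low genes by construction. With glmTreat, which tests against the fold threshold, 25 members were called (10 higher, 15 lower), 17 LINC genes, 8 -DT genes and 9 partners. The share of all genes called with glmTreat is not given here, so these counts are a description only. Leaving out 1 library gave 49 to 58 members, 30 to 35 LINC genes, 17 to 22 -DT genes, 14 to 17 partners and 5 members at the floor each time. The Integrator list had 3 calls with library size alone, and the cause was not tested. Same-numbered libraries did not deviate together (correlations -0.332, 0.0223 and -0.137, against -0.263 to 0.326 for different numbers). Deviations from the mean of 3 libraries cannot decide whether the numbers pair them. The replicate block gave 50 members called, 31 LINC genes, 18 -DT genes and 15 partners and lost FAM86B2-DT and LINC00898. Among 77 single genes, 1069 of 1140 values under 15 alternatives kept direction and side of the threshold, 53 lost the call, 9 gained one and 9 changed sign, and 22 of 35 called named members kept their call under all of them. The changes of sign were in uncalled genes near 0. With library size alone LINC00674 gave 0.011 and ZFAND2A-DT 0.046. Without 1 library LINC00674 ranged from -0.077 to 0.019, ITPR1-DT from -0.39 to 0.30, ZFAND2A-DT from -0.14 to 0.12 and RNF139 from -0.00039 to 0.049. Depth limits the members near 1 CPM, whose counts per library are few.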

Other observations

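Several long noncoding RNAs that once carried a LINC or -DT symbol now have names of their own and fell outside the rule. Of 48 such genes with a row, 17 were called, 14 higher and 3 lower, with a median log2 fold change of 0.29, against 19.3% of all genes called. With them added, a choice made after the data were seen, 69 of 218 genes were called. CCDST had 0, 1 and 1 counts in control and 38, 47 and 42 in overexpressing libraries, so it was at the floor in control, which none of the 170 members was, and it reached the table only through the overexpressing libraries. CYTOR, a long noncoding RNA raised in many tumours, had 51, 75 and 80 counts in control and 158, 195 and 183 in overexpressing libraries (log2 fold change 1.28 ± 0.15). PVT1, the neighbour of MYC, had 161, 146 and 159 against 237, 292 and 324 counts (0.77 ± 0.09).

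SNHG8, a host gene of small nucleolar RNA, had 130, 112 and 138 counts in control and 283, 289 and 314 in overexpressing libraries (1.13 ± 0.11), and SNHG1 rose by 0.64 ± 0.07. MILIP, formerly MAFG-DT, had 152, 137 and 124 counts in control and 54, 45 and 46 in overexpressing libraries (-1.60 ± 0.15). NORAD, an abundant cytoplasmic RNA that binds Pumilio proteins, had 10991, 10034 and 8924 against 7155, 9713 and 9753 counts (-0.27 ± 0.06) and was not called by fold. Adjusted p-values were 7.33e-06 for CYTOR, 8.9e-06 for PVT1, 1.21e-06 for SNHG8 and 1.04e-06 for MILIP (edgeR quasi-likelihood, Benjamini-Hochberg). These genes were named after their values were seen.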
